A study of Ulmus pumila with 3 samples.

Results

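The miR170 and miR171 names of Siberian elm (Ulmus pumila) roots were described across 3 small RNA libraries. They were every name in the deposited tables with the family number miR170 or miR171, which gave 24 of the 309 miRNA names, 1 of miR170 and 23 of miR171. The authors list all 24 under a single family heading, that of miR171. The name miR171g is given to 2 sequences, which are called here by their lengths, 20 nt (short) and 21 nt (long).

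All plants were wild-type seedlings, and roots were taken 30 days after germination. The 3 conditions were no salt (control), NaCl at 50 mM over 6 h and NaCl at 200 mM over 24 h. A single library stands for each, so no difference between conditions could be tested against replicates, and the labels do not say how many seedlings went into it. The stronger dose was also the longer one, so dose and time cannot be told apart. All names together had 509280 counts in control, 449522 at 50 mM and 545587 at 200 mM. Levels are given in RPM, reads per 1000000 of these counts.

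MicroRNAs of the miR170 and miR171 families pair with messenger RNAs of GRAS transcription factors, in Arabidopsis those of the HAIRY MERISTEM group (also called SCL6, SCL22 and SCL27), and direct their cleavage. These GRAS factors keep meristem cells undifferentiated and affect branching and chlorophyll synthesis in Arabidopsis. In the legume Medicago truncatula a variant of miR171 acts on NSP2, a GRAS factor of root symbiosis. The tables list only miRNAs, so neither the target transcripts nor markers of root tissue could be read from them.

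The 24 sequences are variants of the guide strand of the family. How many precursors they come from could not be read from the tables. Where a variant starts, with base changes in some names, decides its seed, the bases 2 to 8 that lead target pairing. The following names show each seed of the set, written 5′ to 3′ with the seed in capitals.
miR171a: uUGAGCCGcgucaauaucucc
miR171d: uUGAGCCGcgccaauaucacu
miR171b: aGAUUGAGccgcgccaauauc
miR171f: gGAUUGAGccgcgucaauauc
miR171h: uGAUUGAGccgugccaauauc
miR171p: uGGUUGAGccgcgccaauauc
miR171w: uAAUUGAGccgugccaauauc
miR171g, 21 nt: uGAGCCGCgccaauaucacau
miR171s: uGAGCCGUgccaauaucacau
The seed of miR171a and miR171d belongs to 9 names, and that of miR171b, miR171f and miR171h to 10. The seed of miR171s belongs to 2 names, and those of miR171p, miR171w and the 21 nt miR171g to 1 each. The names with the seed of miR171b start 3 bases further 5′ on the same guide strand than those with the seed of miR171a. All 24 sequences hold the run GAGCCG of that strand, and no member is of the opposite strand. Lengths were 21 nt for 20 names and 20 nt for 4, and 21 names begin with U, 2 with G and 1 with A.

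The variants also differ at a pair of central bases, shown here in capitals in the names that lead each type.
miR171a: uugagccgCgUcaauaucucc
miR171b: agauugagccgCgCcaauauc
miR171h: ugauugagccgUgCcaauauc
miR170: ugauugagccgUgUcaauauc
Positions are counted from 1 at the 5′ end of miR171o (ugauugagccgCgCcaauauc), a 21 nt name of the miR171b type. Against it the miR171a type (6 names) carries C14U, the miR171h type (8 names) carries C12U, and miR170 carries both C12U and C14U. The miR171b type holds 9 names. Names a single base apart could have different counts. miR171b, which differs from miR171o only by U1A, had 720, 716 and 527 counts in control, 50 mM and 200 mM, while miR171o had 8, 12 and 2. miR171c and miR171d start after that base and had nearly the counts of miR171b, so this contrast does not show the first base of the reads.

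In other cases overlapping names, some of them of different start, had the same or nearly the same counts, so a read can stand under several names. miR171b shares 18 nt exactly with miR171c and miR171d, and the counts of the 3 names differed by at most 1 read in any library. miR171e and miR171f, which also share 18 nt, had identical counts, as did the 20 nt miR171g with miR171h and the 21 nt miR171g with miR171k. Joining overlapping names with near-equal counts left 12 groups of the 24 names. For miR171b and miR171d, or miR171e and miR171f, it cannot be told from these tables which start, and so which seed, the reads had.

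As a family miR171 held a small part of each library. The 23 miR171 names summed to 7183 RPM in control, 7937 RPM at 50 mM and 4375 RPM at 200 mM, the eighth highest sum of 46 numbered families in each library. These sums are 0.718% of all counts in control, 0.794% of those at 50 mM and 0.4375% of those at 200 mM, and they count a shared read under each of its names. With near-equal names joined the family held 0.622% of counts in control (0.594% to 0.650%, exact binomial), 0.664% of those at 50 mM (0.634% to 0.695%) and 0.334% of those at 200 mM (0.316% to 0.353%). The next family above was miR482 in each library, and the next below was miR160 in control and at 50 mM and miR408 at 200 mM.

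Of the members, 11 names in 6 groups reached 20 counts in a library, all of miR171. miR171a was at 1553 RPM in control (exact Poisson interval 1447 to 1665), 1873 RPM at 50 mM (1749 to 2004) and 959 RPM at 200 mM (878 to 1044). miR171b was at 1414 RPM in control (1312 to 1521), 1593 RPM at 50 mM (1478 to 1714) and 966 RPM at 200 mM (885 to 1052). These 2 sequences led the family in every library, and their intervals overlapped in control and at 200 mM but not at 50 mM. miR171e, which has the sequence of miR171a but for its last base, was at 375, 323 and 148 RPM in the same order of libraries. miR171h, the leading name of its central-base type, was at 139, 145 and 56.8 RPM.

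miR171i, another last-base variant of miR171a, was at 98.2, 73.4 and 53.2 RPM in control, at 50 mM and at 200 mM. miR171k, a last-base variant of miR171d, was at 53.0, 60.1 and 12.8 RPM. The order of the 6 groups from miR171e down to miR171k was the same in every library, and miR171h and miR171i overlapped in control and at 200 mM, miR171i and miR171k in control and at 50 mM. miR171k at 200 mM rests on 7 counts (5.16 to 26.4 RPM).

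**Figure D1:**
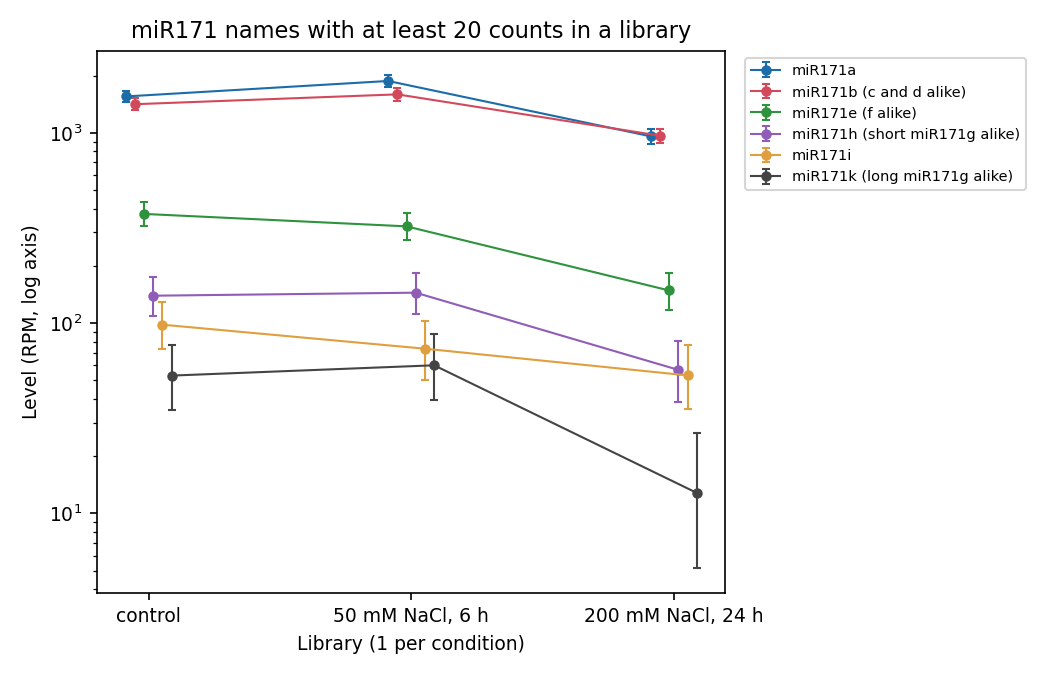
Level in RPM (log axis) of 1 name from each of the 6 groups of near-equal miR171 names, in the control, 50 mM 6 h and 200 mM 24 h libraries; points are single libraries and bars are exact 95% Poisson intervals, which cover counting error only. miR171a and miR171b lead in every library, and all 6 points at 200 mM lie below those of the same name in control and at 50 mM.

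miR170, which in Arabidopsis acts on the same GRAS transcripts as miR171, was scarce. It had 11 counts in control (21.6 RPM), 4 at 50 mM (8.90 RPM) and 6 at 200 mM (11.0 RPM). Its exact intervals overlap, 10.8 to 38.6 RPM in control, 2.42 to 22.8 RPM at 50 mM and 4.04 to 23.9 RPM at 200 mM, so a difference in miR170 was not detectable at this depth. It was below 20 counts in every library and was not compared.

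The first comparison asked how the family stood after the short, mild treatment. In the 50 mM library the leading forms were slightly above the control library, and the less abundant forms did not differ beyond counting error. miR171a had 842 counts at 50 mM against 791 in control, a ratio of RPM of 1.21 (exact 95% interval 1.09 to 1.33). miR171b had 716 against 720 counts, a ratio of 1.13 (1.015 to 1.25), which is above 1 because the 50 mM total is smaller. The summed family had a ratio of 1.105 (1.002 to 1.22), its interval taken from miR171a because a sum counts shared reads more than once.

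The other groups had ratios on both sides of 1. miR171e and miR171f had 145 counts each at 50 mM against 191 each in control, a ratio of 0.860 (0.688 to 1.07). miR171i had 33 against 50, a ratio of 0.748 (0.467 to 1.18). miR171h and the 20 nt miR171g had 65 against 71, a ratio of 1.04 (0.729 to 1.47), and miR171k and the 21 nt miR171g had 27 counts in both libraries, a ratio of 1.13 (0.6395 to 2.01). The intervals of these 4 groups include 1.

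None of the 11 compared names passed the rule of size, which asks for a ratio of at least 2 in either direction, at least 20 counts in 1 of the libraries and an interval that excludes 1. Over all 162 compared names it called 1.85% higher and 3.09% lower. An interval above 1 at any size was found for 4 of the 11, miR171a to miR171d, which form 2 groups, where 23.5% of all compared names had one. With near-equal names joined and the totals recomputed, the family's ratio was 1.07 (0.968 to 1.18). That of the summed miR171b type was 1.09 (0.978 to 1.21), and both intervals include 1.

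The second comparison set the long, strong treatment against control, and there every compared form of miR171 was lower at 200 mM. The 4 minor groups had smaller ratios than the 2 leading ones. miR171a had 523 counts at 200 mM against 791 in control, a ratio of 0.617 (0.552 to 0.690), and miR171b to miR171d had 527 each against 720 each, a ratio of 0.683 (0.6095 to 0.766). The summed family stood at 4375 RPM against 7183 RPM, a ratio of 0.609 (0.544 to 0.681). Trimmed-mean (TMM) factors gave the family a ratio of 0.769 (0.687 to 0.860), and median-of-ratios factors gave 0.784 (0.7005 to 0.876).

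The minor forms had smaller ratios. miR171e and miR171f had 81 counts each at 200 mM against 191 each in control, a ratio of 0.396 (0.301 to 0.516). miR171h and the 20 nt miR171g had 31 against 71, a ratio of 0.408 (0.258 to 0.630). miR171k and the 21 nt miR171g had 7 against 27, a ratio of 0.242 (0.0890 to 0.570), the lowest of the compared members. These names reached the minimum of 20 counts only in control and at 50 mM, so they were compared through the libraries in which they are higher. miR171i, with 29 against 50, had 0.541 (0.330 to 0.872), and 0.684 by TMM factors (0.417 to 1.10), which includes 1.

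By the rule of size 6 of the 11 compared names were lower at 200 mM and none was higher, where 16.7% of all 168 compared names were lower and 3.57% higher. The 6 names are miR171e, miR171f, miR171h, miR171k and both miR171g, which form 3 groups. Scaling weighed on this count: 4 names in 2 groups were lower with TMM factors, where 11.9% of all names were lower and 5.95% higher, and 2 names, miR171k and the 21 nt miR171g, with median-of-ratios factors, where 8.93% were lower and 5.95% higher. With TMM factors miR171e and miR171f passed only at a ratio of 0.4998, right at the cutoff of 0.5. An interval below 1 at any size was found for 11 of 11 names, against 54.2% of all compared names. It was found for 10 of 11 with TMM factors, against 34.5%, and for 10 of 11 with median-of-ratios factors, against 31%.

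**Figure D2:**
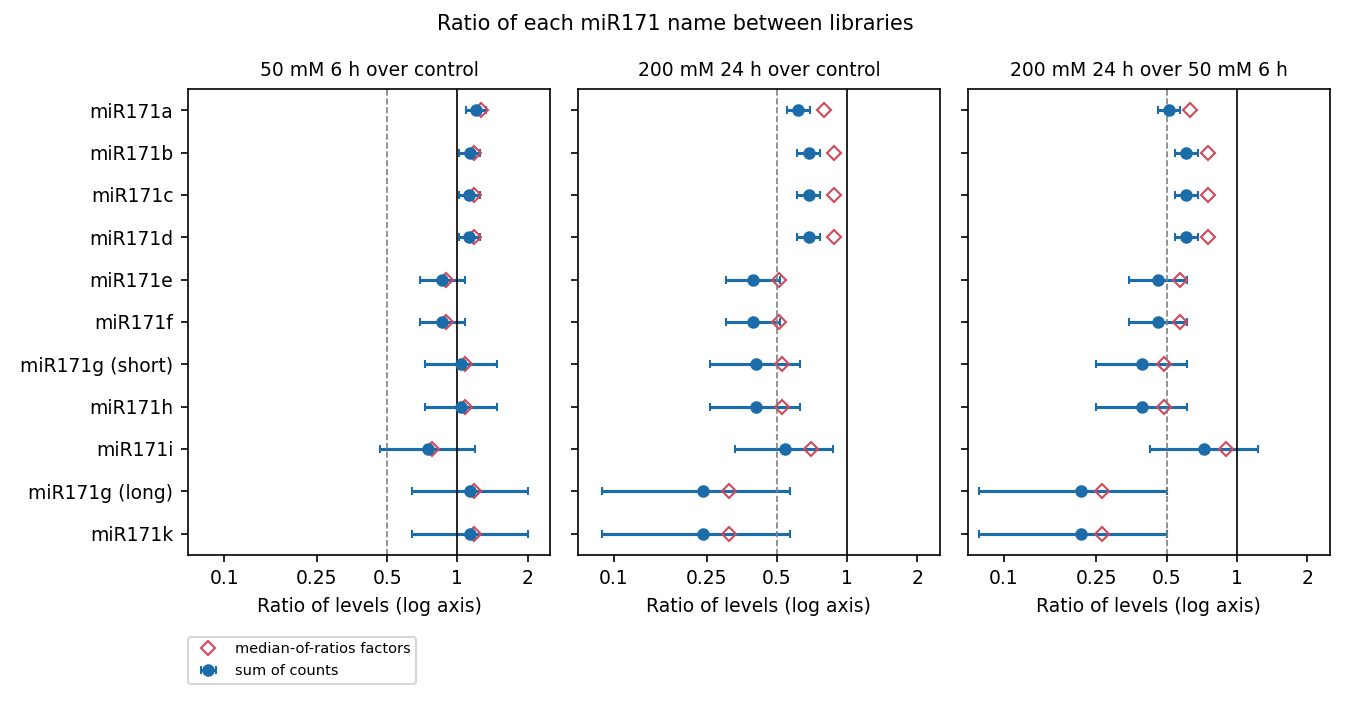
Ratio of levels (log axis) of the 11 compared miR171 names in the 3 comparisons; filled points are ratios of RPM with exact 95% intervals for counting error, open diamonds the same ratios with median-of-ratios factors, the solid line is a ratio of 1 and the dashed line 0.5. In the middle panel all 11 names lie below 1, from 0.683 for miR171b to 0.242 for miR171k.

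The median log2 ratio of the 11 names at 200 mM against control was −1.29, and that of all 168 compared names was −0.40. With 1 name for each near-equal group these medians were −1.09 over 6 names and −0.35 over 118. With TMM factors the medians at 200 mM against control were −0.96 over the 11 names and −0.07 over all names, and with median-of-ratios factors −0.93 and −0.04. At 50 mM against control the 11 names had a median log2 ratio of 0.17, and all 162 names −0.08. All 11 names lay below the median of all names at 200 mM against control, and 3 of 11 at 50 mM. Both comparisons use the single control library.

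Between the salt libraries, the third comparison, the 200 mM library had lower levels of most forms than the 50 mM library. The summed family had a ratio of 0.551 (0.493 to 0.6155), or 0.669 by TMM and 0.680 by median-of-ratios factors. miR171a had 523 counts at 200 mM against 842 at 50 mM, a ratio of 0.512 (0.458 to 0.5715). miR171e had 81 against 145, a ratio of 0.460 (0.346 to 0.608), miR171h had 31 against 65, a ratio of 0.393 (0.248 to 0.612), and miR171k had 7 against 27, a ratio of 0.214 (0.0785 to 0.503). miR171i had 29 against 33, a ratio of 0.724 (0.424 to 1.23), whose interval includes 1.

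The same rule called 6 of the 11 names lower and none higher in this comparison, where 18.9% of all compared names were lower and 6.29% higher. These were again miR171e, miR171f, miR171h, miR171k and both miR171g. With TMM or median-of-ratios factors 4 names were lower, against 12.6% and 11.9% of all compared names, and 8.18% of all names were higher with either. miR171e and miR171f, at 0.558 with TMM factors, were the names no longer called.

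**Figure D3:**
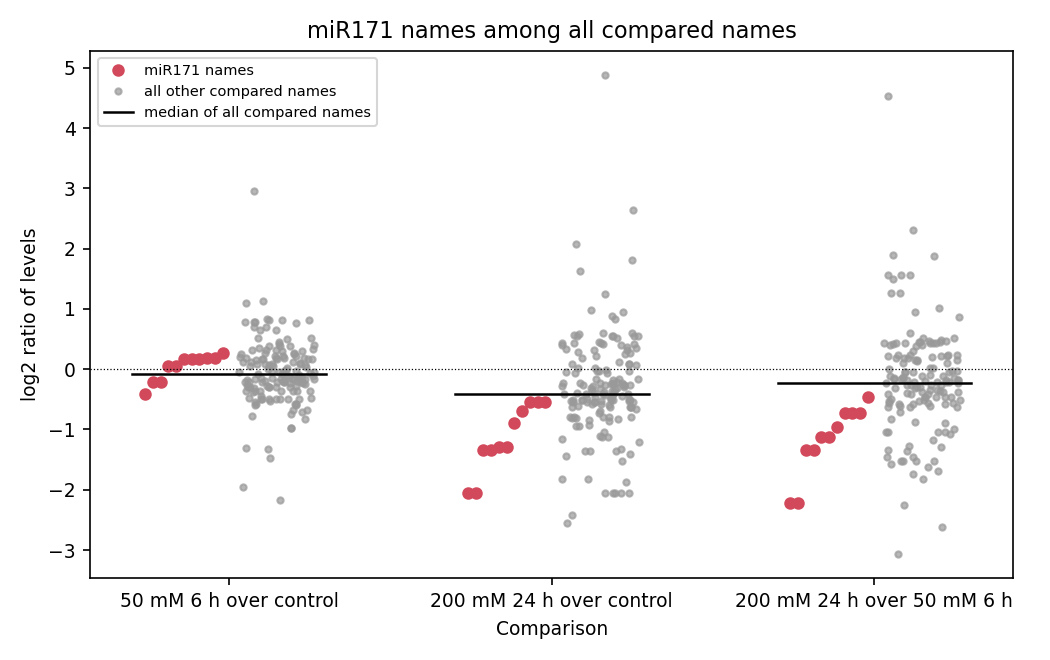
log2 ratio of levels of the miR171 names (red, left in each column) and of all other compared names (grey) in the 3 comparisons; each point is a name, horizontal lines are the medians of all compared names, and sideways spread has no meaning. At 200 mM against control and against 50 mM all 11 miR171 names lie below the median line.

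Ratios between forms within the family do not depend on scaling. Among the 6 groups there are 15 pairs in each comparison, and their ratios of ratios are given with exact 95% intervals for counting error, not adjusted for the number of pairs. At 200 mM against control 5 of the 15 intervals excluded 1. The ratio of miR171e was 0.641 times that of miR171a (0.477 to 0.857) and 0.579 times that of miR171b (0.431 to 0.775). The ratio of miR171h was 0.5965 times that of miR171b (0.372 to 0.938). That of miR171k was 0.392 times that of miR171a (0.143 to 0.932) and 0.354 times that of miR171b (0.129 to 0.842).

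At 50 mM against control 3 of 15 intervals excluded 1, those of miR171e against miR171a at 0.713 (0.5585 to 0.910), of miR171i against miR171a at 0.620 (0.383 to 0.9935) and of miR171e against miR171b at 0.763 (0.596 to 0.9765). At 200 mM against 50 mM, 4 of 15 did. There miR171k was lower relative to miR171a, at 0.417 (0.152 to 0.992), to miR171b, at 0.352 (0.129 to 0.838), and to miR171i, at 0.295 (0.0952 to 0.839). It was again compared through the library in which it is higher, so the same limit holds. miR171b was higher relative to miR171a, at 1.185 (1.01 to 1.39).

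The names miR171a, miR171e and miR171i have the same first 20 bases and end in C, U and A, and the part of each name in their summed counts was compared between libraries.
miR171a: uUGAGCCGcgucaauaucucc
miR171e: uUGAGCCGcgucaauaucucu
miR171i: uUGAGCCGcgucaauaucuca
miR171a made up 76.7% of their 1032 counts in control (73.9% to 79.2%, exact binomial), 82.5% of 1020 at 50 mM (80.1% to 84.8%) and 82.6% of the 633 at 200 mM (79.4% to 85.5%). miR171e made up 18.5% in control (16.2% to 21.01%), 14.2% at 50 mM (12.1% to 16.5%) and then 12.8% at 200 mM (10.3% to 15.7%). The part of miR171a was larger in both salt libraries than in control, with intervals that do not overlap that of control. Since miR171e has the same counts as miR171f, which starts 3 bases further 5′ and lacks this end, these parts do not show the last base of the reads. miR171i stayed between 3.24% and 4.84%, with overlapping intervals.

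By central bases, the miR171h type had the smallest ratio of the types that could be compared. Its 8 names summed to 63 counts at 200 mM against 165 in control, a ratio of 0.356 (0.226 to 0.551, the interval of each sum being taken from its most counted name). The 6 names of the miR171a type had 727 against 1249, a ratio of 0.543 (0.486 to 0.608), and the 9 names of the miR171b type 1597 against 2244, a ratio of 0.664 (0.593 to 0.744). The intervals of the miR171h and miR171a types overlap. Low ratios were not particular to the miR171h type. miR171h was at 0.408, while miR171e of the miR171a type was at 0.396 and miR171k of the miR171b type at 0.242. The ratio of miR171h was 1.03 times that of miR171e (0.604 to 1.73). Within the family, with near-equal names joined, the miR171h type took 4.60% of counts in control (3.71% to 5.64%), 4.21% of those at 50 mM (3.35% to 5.22%) and 2.62% of those at 200 mM (1.80% to 3.68%). The miR171b type took 39.5% in control (37.3% to 41.7%), 40.3% of those at 50 mM (38.0% to 42.5%) and 43.9% of those at 200 mM (41.1% to 46.8%), with intervals that overlap. The joined group of miR171n to miR171r holds names of both types and is counted in each, so these are not exact shares of the joined family.

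**Figure D4:**
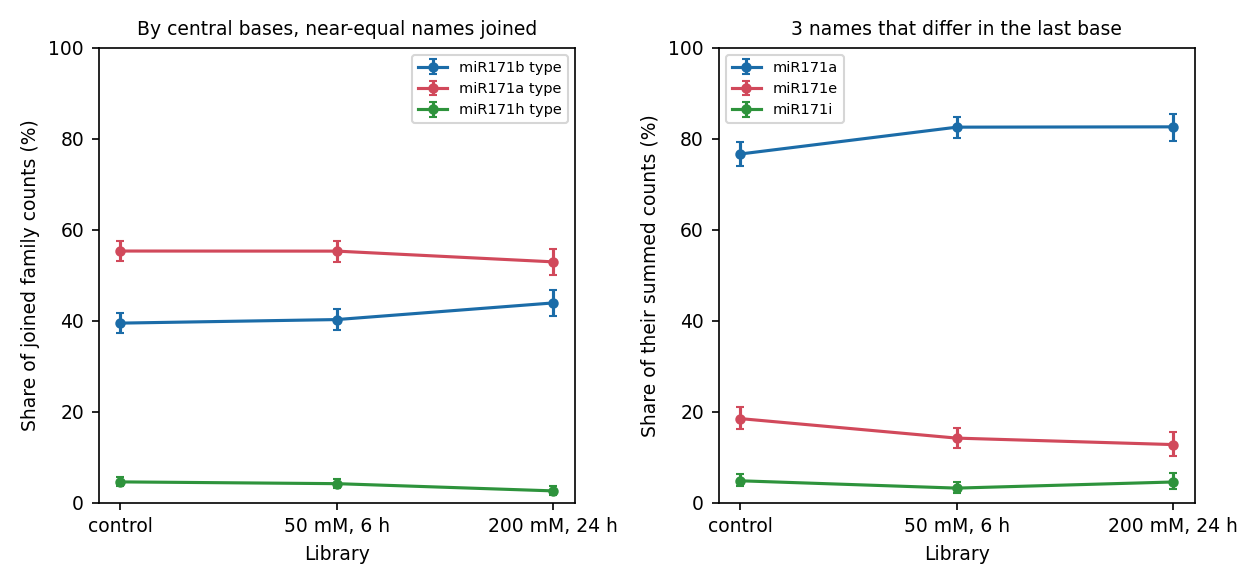
Left, share of the family's counts in the control, 50 mM and 200 mM libraries by type of central bases, with near-equal names joined (miR170, under 1% in each library, is not drawn); right, share of miR171a, miR171e and miR171i in their summed counts; bars are exact 95% binomial intervals. The miR171h type is at 2.62% at 200 mM and 4.60% in control, and miR171e, whose counts equal those of miR171f, is at 12.8% at 200 mM and 18.5% in control. The joined group of miR171n to miR171r holds names of the miR171h and miR171b types and is counted in each.

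The remaining 12 names of miR171, all under 20 counts, were scarcest at 200 mM. miR171l, a 21 nt name of the miR171a type with the start of miR171o, had 15, 9 and 7 counts in control, at 50 mM and at 200 mM. miR171m, a miR171a-like form with another end, had 11, 8 and 6. miR171n had 9, 12 and 1 counts, and miR171o 8, 12 and 2. The names miR171p to miR171w had between 2 and 8 counts in control and between 1 and 9 at 50 mM, and are not listed at 200 mM, where they were taken as 0.

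These names and miR170 were set beside all others under 20 counts in control. Of the 13 members among them 8 are not listed at 200 mM, where 20.3% of all 133 such names are not listed. Outside the 2 families 19 of 120 are not, or 15.8%. At 50 mM, 0 of the 13 members are not listed, against 18% of all such names and 20% of those outside. This range of counts was chosen after the values were seen. The 8 members not listed at 200 mM had 2 to 8 counts in control, while the range takes any count under 20. These shares are therefore not matched for count. The 8 names not listed at 200 mM overlap in sequence and fall into 3 groups of near-equal counts, so they are not 8 independent observations.

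The 5 names whose ratios lay closest to those of the summed family were found among 158 others listed in all 3 libraries with at least 20 counts. Closeness was the Euclidean distance between pairs of log2 ratios, 50 mM over control and 200 mM over control, over 3 libraries. They were new-12-5p (a miRNA the authors named as new) at a distance of 0.042, new-3-3p at 0.15, new-19-5p at 0.16, and miR156b with miR157a-5p, which share their counts, at 0.18. new-12-5p had 413, 414 and 272 counts in control, at 50 mM and at 200 mM, with ratios to control of 1.14 and 0.615.

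Some other families that act on regulators of growth, most of them transcription factors, were set beside miR171. The list holds miR159, miR160, miR164, miR165, miR166, miR167, miR169, miR319, miR394 and miR396, with 98 names. At 200 mM against control 13 of its 73 compared names were lower by the rule of size and 0 higher, where 16.7% of all compared names were lower and 3.57% higher. The median log2 ratio of the list was −0.41, against −0.40 over all names, so neither its lower calls nor its median stood far from those of all names. Of these 13, 7 were of miR164, 5 of miR160 and 1 of miR166. Several of them have the same counts: miR164d to miR164h had 7 each against 27 each in control, and miR160a to miR160c 316 each against 755 each. The 13 names are therefore not 13 independent observations. At 50 mM against control 1 of 73 was lower and 0 higher, where 3.09% of all compared names were lower and 1.85% higher, and the median log2 ratio was −0.17 against −0.08.

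Summed by family, the ratio of miR171 at 200 mM against control was the sixth lowest of 33 numbered families with enough counts, whose median ratio was 0.788. In the list, miR164, which acts on NAC factors, had 0.318, miR160, which acts on auxin response factors, 0.404, and miR396, which acts on growth-regulating factors, 0.617. miR319, which acts on TCP factors, had 1.35 and miR159, which acts on GAMYB-like factors, 1.24. At 50 mM against control, with ratios of 1.105 for miR171 and 1.13 for miR160, miR171 was 18th from the lowest of 29 families.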

How the data were processed

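Small RNA of 3 root samples was sequenced, 1 library per condition, from Trizol RNA with an NEBNext small RNA kit, per the labels' protocols. Groups follow the description of each sample. Per the file headers, each table deposited by the authors gives a read count and a TPM value for every miRNA name. The deposited TPM was checked to equal the count per 1000000 of the table's sum and is called RPM here. Details of trimming, alignment and read assignment, not given in the sources used here, could change these counts. The sum of a table is not its library's sequencing depth.

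A name not listed was taken as 0. Ratios have exact conditional binomial 95% intervals (Clopper-Pearson), levels Poisson and shares binomial ones, all for counting error only, since amplified reads are not independent molecules. With 1 library per condition no p-value was computed. A name was compared when both libraries list it and 1 of them has 20 counts or more. Near-equal names share an overlap of 16 nt or more in sense or antisense, with no more than 2 mismatches, and have counts within 5% or 3 reads in each library. Such pairs were chained into groups, so 2 names of a group need not meet the rule with each other. For example, miR171n and miR171p are joined with 3 mismatches. Alternatives were TMM factors (edgeR 4.0.16), median-of-ratios factors (DESeq2 1.42.0), totals without miR159a, joined names, other count minimums and a ratio of 1.5. Python 3.11.15 and scipy 1.17.1 were used. The calling rule was tried on simulated independent Poisson counts in which changed names were only raised. These had no variation between libraries and no shared reads, so they do not show the rule's error in these data.

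All members are named, in full above 20 counts. The names most alike are the 5 nearest outside the family. Members and lists were chosen with earlier results of these data known. Types by central bases and last bases were chosen after the sequences and counts were seen.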

Additional observations from a re-analysis of the deposited data

Results flagged for a closer look

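Among the members, 4 names were above control at 50 mM for 6 h and below it at 200 mM for 24 h, with intervals for counting error that exclude 1 in both. These are 4 of 11 members, where 10.6% of all 161 names compared in both had this pattern. miR171a had a ratio to control of 1.21 at 50 mM and 0.617 at 200 mM. miR171b had 1.13 and 0.683, and miR171c and miR171d each had 1.125 and 0.683. The last 3 share reads, so these are 2 groups, and both ratios of a name use the same control library. Whether the salt treatments differ was not tested, since each has 1 library.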

How the results depend on the processing

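The direction of the family's ratio was the same in each of the 3 comparisons under every alternative run, and 1 interval came to include 1: with near-equal names joined and totals recomputed, the ratio at 50 mM against control was 1.07. At 200 mM against control the number of lower members was 6 as reported, 2 with median-of-ratios factors, 3 with near-equal names joined and totals kept, and 11 with no count minimum, where a name not listed was set to 3 counts for its ratio and kept at 0 for its interval. At 200 mM against 50 mM it was 6 as reported, 3 with near-equal names joined and totals kept, 11 with no count minimum and 10 with a ratio of at least 1.5. At 50 mM against control it was 0 throughout. Joined names were counted among 6 groups, where the other counts are among names. The share of all names called with joined names, other count minimums or a ratio of 1.5 is not given here. Counts under these settings therefore do not show whether the family stands out. In the list of other growth families, scalings were added after the data were seen. There 8 of 73 names were lower at 200 mM against control with median-of-ratios factors, where 13 were as reported. Of all compared names 8.93% and 16.7% were lower in these 2 settings. Against 50 mM, 5 of 67 names of the list were lower with TMM and with median-of-ratios factors, where 8 were as reported. Of all compared names 12.6%, 11.9% and 18.9% were lower in the same order. The causes were not tested beyond the construction of each setting. Of 99 ratios of single members under TMM factors, median-of-ratios factors or totals without miR159a, 97 kept direction and side. The other 2, both of miR171i at 200 mM against control, had intervals that included 1, and none reversed. Joined totals were not run for single members. No paired analysis was possible because each condition has 1 library, and no replicate could be left out. Counting error limits miR170 and all names under 20 counts.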

Other observations

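No member is of the strand opposite the guide, but 1 name outside the family is complementary to it. new-23, a name the authors gave as new, pairs with miR171b, miR171o and miR171r over 20 nt with 3 bases unpaired by the Watson-Crick rule, all 3 of them G:U. It is printed with these bases in capitals, 5′ to 3′.
new-23: agGuGuuggcgcggUucaauc
It had 21 counts in control, 16 at 50 mM and 15 at 200 mM. Its ratio was 0.863 (0.421 to 1.74) at 50 mM against control and 0.667 (0.320 to 1.36) at 200 mM against control, with intervals that include 1. This name was chosen after its values were seen.

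By first base, which in Arabidopsis bears on the Argonaute protein a small RNA enters, the U-starting names took 75.0% of the family's counts in control, 75.6% at 50 mM and 74.6% at 200 mM. The single A-starting name, miR171b, took 19.6%, 20.04% and 22.0% in the same order, and the G-starting miR171f and miR171r took 5.40%, 4.31% and 3.39%. Because miR171b and miR171f share counts with U-starting names, these shares do not show the first base of the reads.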
